A study of Homo sapiens with 9 samples.

Results

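The genes described here were 6 matrix metalloproteinases (MMPs), 3 tissue inhibitors of metalloproteinases (TIMPs) and the related protease ADAMTS1, 10 of the 63187 genes in the count table. They were chosen by gene name, with earlier results of these data known, and found in the table by their Ensembl identifiers. Their values in the 3 comparisons below are therefore given as a description, and no count over the 10 genes is a test of the group. BEAS-2B cells are an immortalized line from human bronchial epithelium, and every culture was grown in the same medium with fetal bovine serum. Control cells were left untreated. PG/VG cells received condensed aerosol from propylene glycol and vegetable glycerin, the carrier alone, at a 2% (v/v) dilution for 24 h. EC cells received, at that dilution and for that time, the condensate of a Virginia tobacco-flavored liquid with 18 mg/mL nicotine in the same kind of carrier. Each condition had 3 libraries, numbered 2, 3 and 4, and the sample labels give that number as the batch as well. One line, 1 dilution and 1 time point were studied.

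MMPs are zinc-dependent endopeptidases that are made as inactive proenzymes and that can cut collagens, gelatins, proteoglycans and many proteins of the cell surface. TIMPs bind the active site of these enzymes and block it, and TIMP2 held by MMP14 at the cell surface also takes part in the activation of pro-MMP2. In the airway, MMPs and TIMPs take part in wound repair and in the turnover of the basement membrane. The measurements below are mRNA levels and carry no information on proenzyme activation or on the amount of protein.

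The counts assigned to genes ranged from 16168260 to 24917838 per library. A gene entered the edgeR test when 3 or more libraries had 10 or more of its counts, which 16030 genes did, and the single fit held terms for condition and batch. A differentially expressed gene (DEG) is one whose p, after Benjamini-Hochberg adjustment over these genes, was under 0.05. Levels are in CPM, the counts of a gene relative to the TMM-scaled library size, and LFC is the fitted log2 fold change with its standard error (SE). Of the 10 genes, 9 were tested, each with at least 37 counts in every library. MMP10 was the exception, with 0 to 4 counts per library, and it is marked here as under 10 counts throughout. For several of the genes below, the libraries of batch 4 stood apart from the others. Of all genes tested, 34.3% (5505) had a batch difference, in a joint test that does not say which batch differed. Among markers of the labelled cell type, the simple epithelial keratins KRT7, KRT8 and KRT18 were abundant, whereas KRT19 was lower, at 16.8 to 23.1 CPM. The basal cell markers KRT5 and TP63 had at most 5 counts in any library, and EPCAM and CDH1 were low. Of the mesenchymal markers, VIM, FN1 and CDH2 were abundant as well, COL1A1 and PDGFRB were lower, and COL1A2 and COL3A1 had at most 11 counts in any library. Of the leukocyte markers, CD14 had 58 to 209 counts per library, CD3E had none and the other 4 had at most 7. In EC, the summed level of the 8 epithelial markers ranged from 1460 to 2290 CPM, against 1780 to 2840 CPM in the control, and that of the 7 mesenchymal markers from 3560 to 5470 CPM against 5050 to 7030 CPM. The latter sum was mostly FN1, with a mean of 3220 CPM in EC and 4790 CPM in the control, and the list did not move as 1, since FN1 and CDH2 were downregulated in EC vs. control, PDGFRB was upregulated (LFC 0.25, edgeR adjusted p = 0.0458) and VIM and COL1A1 were not DEGs. Of the epithelial markers, KRT7, KRT8 and KRT18 were downregulated. The other 3 tested, KRT19, EPCAM and CDH1, were not DEGs, with LFCs of 0.184, 0.575 and 0.363 in EC vs. control. Over all 9 libraries the 6 leukocyte markers summed to 3.22 to 9.02 CPM and the 4 endothelial markers to at most 9.68 CPM. The part of these shifts in the results below was not tested.

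Of the 9 genes tested, EC vs. control gave 5 DEGs, TIMP1, MMP2 and MMP14 upregulated and TIMP3 and ADAMTS1 downregulated. Among all genes tested, 13.5% were DEGs in this comparison, 8.07% upregulated and 5.38% downregulated. PG/VG vs. control gave 3 DEGs, MMP2 upregulated and MMP1 and ADAMTS1 downregulated, beside 4.54% of all genes tested, 2.63% upregulated and 1.90% downregulated. When EC was set against PG/VG directly, 2 genes were DEGs, with MMP1 higher and TIMP3 lower in EC, beside 0.855% of all genes tested, 0.555% higher and 0.299% lower. Because the genes were chosen with these results known, nothing is read from the shares. The median of the absolute LFC over the 9 genes was 0.25, 0.30 and 0.18 in the 3 comparisons, and over all genes tested it was 0.16, 0.14 and 0.11. Both comparisons against the control used the same 3 control libraries, so their values are given side by side without a test between them. In these bulk libraries, a change of mRNA in every cell and a change in the share of cells that carry it cannot be told apart.

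**Figure D1:**
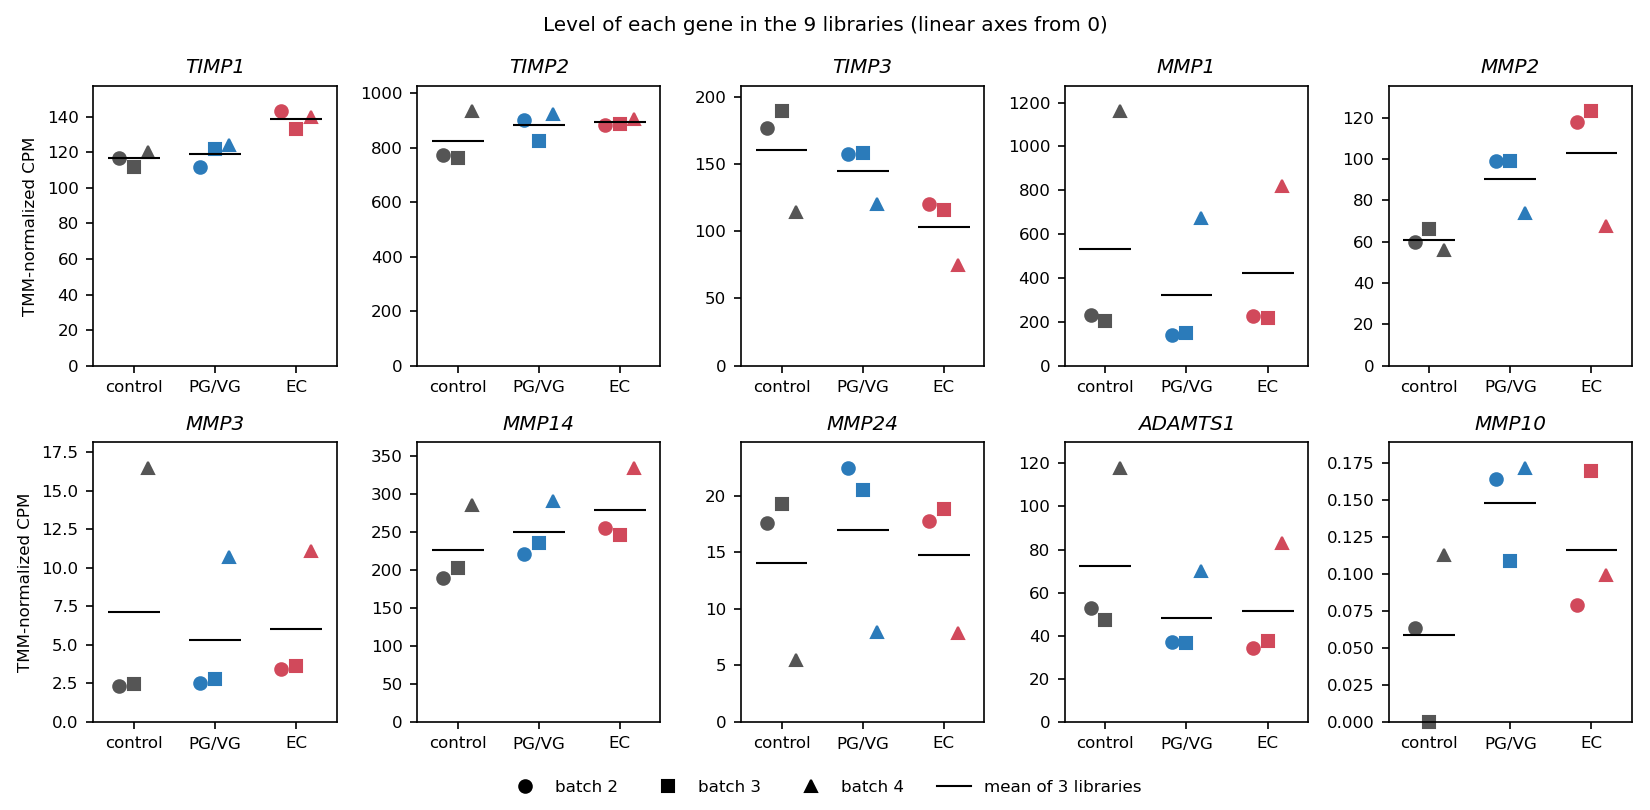
TMM-normalized CPM of the 10 genes in each of the 9 libraries on linear axes that start at 0, with 1 panel per gene, color for the condition, marker shape for the batch and a line at the mean of 3 libraries. Within each condition, MMP1, MMP3 and ADAMTS1 were highest and TIMP3 and MMP24 lowest in the batch 4 library, and MMP10 reached at most 0.172 CPM.

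To compare levels between genes, CPM was divided by the length of the annotated exons in kilobases. On this scale, MMP1 and TIMP2 had the highest levels in the control, with means of 194 and 133 CPM per kb. The range of MMP1 over the control libraries, 74.9 to 423, enclosed that of TIMP2, 123 to 150, so their order is not set by these data. TIMP1 followed with 80.7, MMP14 with 49.0 and TIMP3 with 34.8 CPM per kb, and none of these ranges overlapped the next. MMP2 with 12.9, ADAMTS1 with 9.93, MMP3 with 3.84 and MMP24 with 3.23 CPM per kb formed the lower part of the order, in which the range of each of the first 3 overlapped that of the gene after it. MMP10 was at 0.0334 CPM per kb. In PG/VG, TIMP2 at 142 CPM per kb had a higher mean than MMP1 at 118, with overlapping ranges. In EC, TIMP3 at 22.5 and MMP2 at 21.8 CPM per kb overlapped, whereas in the control every TIMP3 value lay above every MMP2 value.

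Among the inhibitors, TIMP1, which binds most secreted MMPs, is a gene on the plus strand of the X chromosome (GRCh38 chrX:47582408-47586789, ENSG00000102265). TIMP3, which stays bound to the extracellular matrix and also inhibits several ADAM and ADAMTS proteases, lies on the plus strand of chromosome 22 (GRCh38 chr22:32801705-32863041, ENSG00000100234). MMP14, the membrane-type enzyme that activates pro-MMP2, lies on the plus strand of chromosome 14 (GRCh38 chr14:22836560-22849041, ENSG00000157227). The promoter entries of these 3 genes are shown because they are the genes with an EC vs. control difference and a single RefSeq entry. Each entry runs from 250 bases before to 50 after the start on GRCh38.p14, written 5′ to 3′ on the plus strand. The positions are chrX:47582186-47582485, chr22:32801455-32801754 and chr14:22836335-22836634. Capitals mark matches, on either strand, to GGGCGG (the GC box bound by Sp1-type factors, CCGCCC when read on the other strand) or to TGAGTAA (a variant of the TGAGTCA element bound by AP-1), and no match overlaps another.
TIMP1: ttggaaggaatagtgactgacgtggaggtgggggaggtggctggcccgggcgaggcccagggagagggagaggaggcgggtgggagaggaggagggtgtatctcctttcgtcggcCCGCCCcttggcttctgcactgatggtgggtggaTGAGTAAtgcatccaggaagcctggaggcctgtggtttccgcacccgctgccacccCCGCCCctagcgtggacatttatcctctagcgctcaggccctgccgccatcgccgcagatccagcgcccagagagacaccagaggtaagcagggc
TIMP3: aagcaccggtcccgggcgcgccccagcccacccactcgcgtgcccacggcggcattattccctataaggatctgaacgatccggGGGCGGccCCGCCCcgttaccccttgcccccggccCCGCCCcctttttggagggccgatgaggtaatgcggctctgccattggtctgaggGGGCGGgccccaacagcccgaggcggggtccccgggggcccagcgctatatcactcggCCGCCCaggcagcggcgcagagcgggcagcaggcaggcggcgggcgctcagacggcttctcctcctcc
MMP14: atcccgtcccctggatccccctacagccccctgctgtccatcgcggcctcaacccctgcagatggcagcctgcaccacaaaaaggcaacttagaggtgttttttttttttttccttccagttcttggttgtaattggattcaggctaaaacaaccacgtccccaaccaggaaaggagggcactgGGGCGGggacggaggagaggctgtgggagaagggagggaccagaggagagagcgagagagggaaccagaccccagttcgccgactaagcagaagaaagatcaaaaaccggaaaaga

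The TIMP1 window held 1 TGAGTAA and 2 GC boxes, and 65.0% of its bases were G or C. The TIMP3 window held 5 GC boxes and 31 CG pairs at 72.7% G or C, and the MMP14 window 1 GC box and 10 CG pairs at 55.0%. Over 35116 RefSeq promoter entries of the same length, 45.0% held a GC box and 2.57% held TGAGTAA, and the medians were 58.7% G or C and 14 CG pairs. Of the 10 genes, 5 had a single entry, and genes with no entry or with several were left out. The others of the 5 were MMP10, with 1 TATAAA (in 11.5% of all entries) and 36.3% G or C, and MMP24, with 3 GC boxes and 80.0% G or C. None of the 5 windows held TGAGTCA itself, which was present in 4.95% of all entries. These matches describe letters in a window and say nothing about binding.

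TIMP1 was at 117, 112 and 120 CPM in control replicates 2, 3 and 4, at 112, 122 and 124 CPM in PG/VG and at 143, 133 and 140 CPM in EC. Every EC library lay above every library of the other groups. With a mean of 139 ± 5.41 CPM in EC against 117 ± 4.08 CPM in the control (SD, n = 3), TIMP1 was upregulated 1.19-fold (LFC 0.25, SE 0.0698, edgeR adjusted p = 0.0198). PG/VG cells were close to the control, with an LFC of 0.03 (SE 0.07, adjusted p = 0.859). EC vs. PG/VG had an LFC of 0.22, with a 95% confidence interval of 0.076 to 0.363 and an adjusted p of 0.151. With DESeq2 on ComBat-Seq adjusted counts, the route of the study's methods, this difference had an LFC of 0.21 and an adjusted p of 0.0148. That fit held no batch term, and it gave the 1 call for this difference among 9 other settings. With a library left out, 0 of 9 fits gave a call for it. Among TIMP1, TIMP2 and TIMP3, TIMP1 moved least between batches, with a ratio of 1.05 between its highest and lowest batch mean. Its edgeR adjusted p for any batch difference was 0.748. EC exceeded the control by 0.29, 0.24 and 0.21 on the log2 scale within batches 2, 3 and 4. The EC vs. control call was nevertheless close to the threshold, since it was lost without control replicate 2 (adjusted p = 0.0692), control replicate 3 (0.176), EC replicate 2 (0.108) or EC replicate 4 (0.0656), with an LFC of 0.19 to 0.28 in the 9 fits with a library left out.

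TIMP2, the most abundant of the 3 inhibitors, lies on the minus strand of chromosome 17 (GRCh38 chr17:78852977-78925387, ENSG00000035862). It was at 775, 762 and 934 CPM in the control, 901, 825 and 925 CPM in PG/VG and 884, 889 and 908 CPM in EC. The 3 groups overlapped, and the batch 4 libraries of the control and PG/VG lay above every EC library. TIMP2 was not a DEG, with an LFC of 0.12 (SE 0.0694, edgeR adjusted p = 0.262) in EC vs. control, 0.11 (SE 0.0694, adjusted p = 0.425) in PG/VG vs. control and 0.02 in EC vs. PG/VG. The 95% confidence interval of the last difference was −0.125 to 0.162. Of its exon length, 9.52% is shared with other genes, and the strand setting of the counting is not given in the sources used here.

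TIMP3 moved in the opposite direction from TIMP1 in EC. It was at 177, 189 and 114 CPM in control replicates 2, 3 and 4, at 157, 158 and 120 CPM in PG/VG and at 120, 116 and 74.8 CPM in EC. The batch 4 library was the lowest of each condition, so EC replicates 2 and 3 lay just above control replicate 4, whereas no EC library exceeded a PG/VG library. TIMP3 was downregulated in EC vs. control to 0.648 of the control level (LFC −0.63, SE 0.0745, edgeR adjusted p = 8.94e-06), and in EC vs. PG/VG to 0.702 (LFC −0.51, SE 0.0742, adjusted p = 0.000787). In PG/VG vs. control, the LFC was −0.12 (SE 0.0739, adjusted p = 0.405). Within batches 2, 3 and 4, EC lay below the control by log2 differences of −0.57, −0.71 and −0.60, and below PG/VG by −0.39, −0.46 and −0.69. Both calls held in each of the 9 fits with a library left out, in which the LFC ranged from −0.68 to −0.58 and from −0.56 to −0.41.

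**Figure D2:**
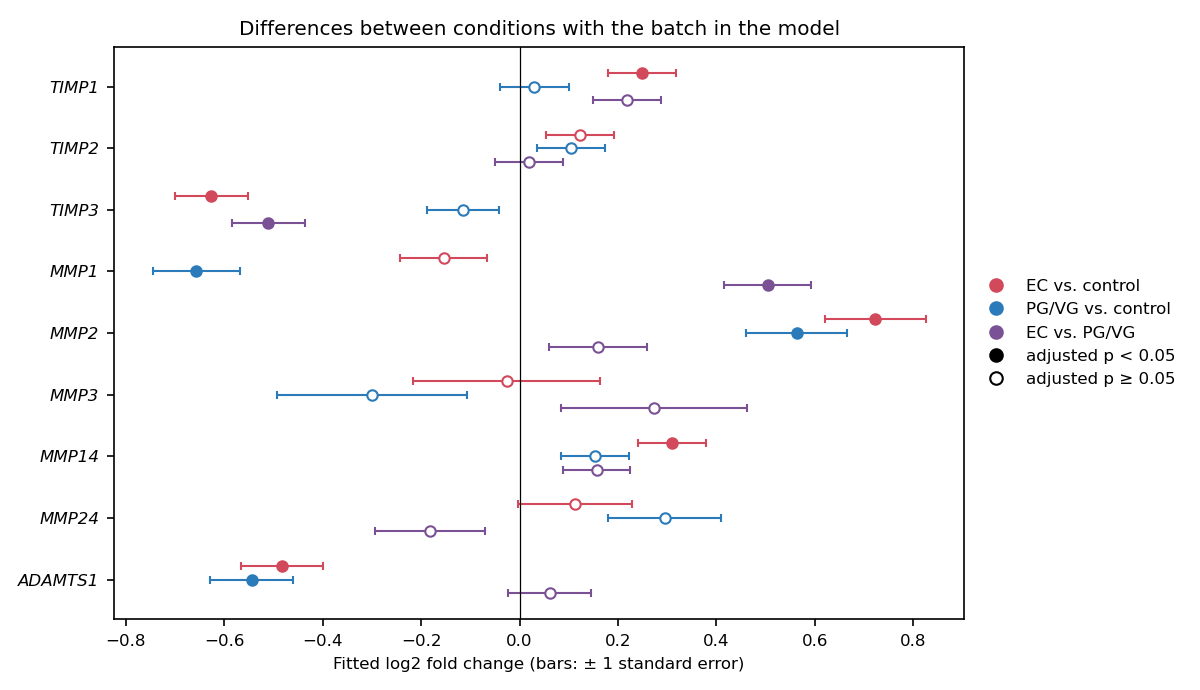
Fitted LFC of the 9 genes tested in the 3 comparisons, with bars of ± 1 SE, and filled points for an adjusted p under 0.05. TIMP3 lay at −0.63 in EC vs. control and at −0.51 in EC vs. PG/VG, MMP2 at 0.72 and 0.56 against the control, and MMP1 at −0.66 in PG/VG vs. control and 0.50 in EC vs. PG/VG.

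MMP1, the interstitial collagenase that cuts fibrillar collagens, lies in an MMP gene cluster on the minus strand of chromosome 11 (GRCh38 chr11:102789401-102798160, ENSG00000196611), and 8.14% of its exon length is shared with other genes. It was at 232, 205 and 1160 CPM in the control, 141, 149 and 676 CPM in PG/VG and 225, 218 and 821 CPM in EC. The batch 4 library stood far above the other libraries in all 3 conditions, so the SD over the control replicates, 543 CPM, was as large as their mean of 532 CPM, and the comparisons rest on the batch term. Within each batch the PG/VG library was the lowest of the 3. PG/VG vs. control gave 0.634 of the control level (LFC −0.66, SE 0.0884, edgeR adjusted p = 0.000351), with log2 differences of −0.72, −0.46 and −0.78 in batches 2, 3 and 4. MMP1 was higher in EC than in PG/VG by 1.42-fold (LFC 0.50, SE 0.0881, adjusted p = 0.00691), with 0.67, 0.55 and 0.28 within the batches. The EC libraries of batches 2 and 3 were close to the controls, with log2 differences of −0.045 and 0.09, whereas batch 4 differed by −0.50, and EC vs. control was not a DEG (LFC −0.15, SE 0.0879, adjusted p = 0.277). The PG/VG vs. control call held in the 9 fits with a library left out. The EC vs. PG/VG call was lost without PG/VG replicate 2 (adjusted p = 0.0824), PG/VG replicate 4 (0.0595) or EC replicate 2 (0.0734).

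MMP2, the gelatinase that cuts denatured collagen and the type IV collagen of basement membranes, lies on the plus strand of chromosome 16 (GRCh38 chr16:55389700-55506691, ENSG00000087245). It was at 60.0, 66.1 and 55.9 CPM in the control, 98.8, 98.8 and 73.8 CPM in PG/VG and 118, 123 and 67.8 CPM in EC. All libraries of both treatments lay above all controls, and the batch 4 library was the lowest of each condition. MMP2 had the largest LFC in absolute value of the 9 genes in EC vs. control, 0.72 (SE 0.102, 1.65-fold, edgeR adjusted p = 0.000196). In PG/VG vs. control, it was upregulated 1.48-fold (LFC 0.56, SE 0.102, adjusted p = 0.00456). The increase within batch 4 was smaller in both, with log2 differences of 0.97, 0.89 and 0.28 for EC and 0.72, 0.58 and 0.40 for PG/VG in batches 2, 3 and 4. EC vs. PG/VG gave an LFC of 0.16 (SE 0.0994, adjusted p = 0.543) with a 95% confidence interval of −0.05 to 0.37, and EC was the higher of the pair in batches 2 and 3 and the lower in batch 4. Without PG/VG replicate 4 the adjusted p of PG/VG vs. control was 0.0507, and the EC vs. control call held in all 9 such fits.

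The stromelysins MMP3 and MMP10, which cut proteoglycans, fibronectin and laminin and can activate other proenzymes, lie in the same cluster as MMP1, MMP3 at GRCh38 chr11:102835801-102843609 (ENSG00000149968) and MMP10 at chr11:102770502-102780628 (ENSG00000166670), both on the minus strand. MMP3 was at 2.35, 2.48 and 16.5 CPM in the control, 2.5, 2.79 and 10.7 CPM in PG/VG and 3.45, 3.62 and 11.1 CPM in EC, from 37 to 294 counts. It was a low-level gene in batches 2 and 3 and several times higher in batch 4 of each condition. In EC vs. control, MMP3 was higher by 0.55 and 0.55 on the log2 scale in batches 2 and 3 and differed by −0.57 in batch 4, so the LFC of −0.026 (SE 0.19, edgeR adjusted p = 0.951) averages over batches of opposite direction. In PG/VG vs. control the within-batch differences were 0.088, 0.17 and −0.63, and the LFC was −0.30 (SE 0.193, adjusted p = 0.41). MMP10 had 1, 0 and 2 counts in the control libraries, 4, 2 and 4 in PG/VG and 2, 4 and 2 in EC. It was not tested, and for the control library without a count the limit that 3 counts set is 0.186 CPM, which is above every value in the other libraries, so no difference was detectable at this depth.

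The membrane-type enzyme MMP14 was at 190, 203 and 286 CPM in the control, 221, 236 and 291 CPM in PG/VG and 256, 246 and 335 CPM in EC. The batch 4 library was the highest of each condition, and within each batch the order was control, PG/VG and EC. MMP14 was upregulated 1.24-fold in EC vs. control (LFC 0.31, SE 0.0685, edgeR adjusted p = 0.00413), with log2 differences of 0.43, 0.27 and 0.23 in batches 2, 3 and 4. The PG/VG values lay between the others, with an LFC of 0.15 against the control (SE 0.0686, adjusted p = 0.212) and of 0.16 for EC vs. PG/VG (95% confidence interval 0.016 to 0.298, adjusted p = 0.321). Without control replicate 2, the adjusted p of EC vs. control was 0.0552, and the call held without each of the other libraries.

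MMP24, another membrane-type enzyme, known for its part in cutting cadherins in neural tissue, lies on the plus strand of chromosome 20 (GRCh38 chr20:35226690-35276998, ENSG00000125966), where 22.1% of its exon length is shared with other genes. It was at 17.6, 19.3 and 5.52 CPM in the control, 22.5, 20.5 and 7.98 CPM in PG/VG and 17.8, 18.8 and 7.84 CPM in EC. The batch 4 library was the lowest of each condition. MMP24 was not a DEG in EC vs. control (LFC 0.11, SE 0.116, edgeR adjusted p = 0.582), in PG/VG vs. control (LFC 0.30, SE 0.115, adjusted p = 0.146) or in EC vs. PG/VG (LFC −0.18, SE 0.111, adjusted p = 0.526). The PG/VG library was above the control of its batch in all 3 batches, by 0.35, 0.09 and 0.53 on the log2 scale.

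ADAMTS1, a secreted protease that cuts the proteoglycans aggrecan and versican, lies on the minus strand of chromosome 21 (GRCh38 chr21:26835755-26845409, ENSG00000154734). It was at 52.7, 47.4 and 118 CPM in the control, 37.3, 36.8 and 70.1 CPM in PG/VG and 34.5, 37.7 and 83.0 CPM in EC. Within each batch both treated libraries lay below the control, and batch 4 was the highest library of each condition. ADAMTS1 was downregulated to 0.715 of the control level in EC (LFC −0.48, SE 0.0835, edgeR adjusted p = 0.000455) and to 0.686 in PG/VG (LFC −0.54, SE 0.0841, adjusted p = 0.000686). Within batches 2, 3 and 4 the log2 differences were −0.61, −0.33 and −0.50 for EC cells and −0.50, −0.36 and −0.75 for PG/VG cells. The direct comparison of EC vs. PG/VG gave an LFC of 0.06 (adjusted p = 0.825) with a 95% confidence interval of −0.113 to 0.235. Both calls against the control held in all 9 fits with a library left out.

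**Figure D3:**
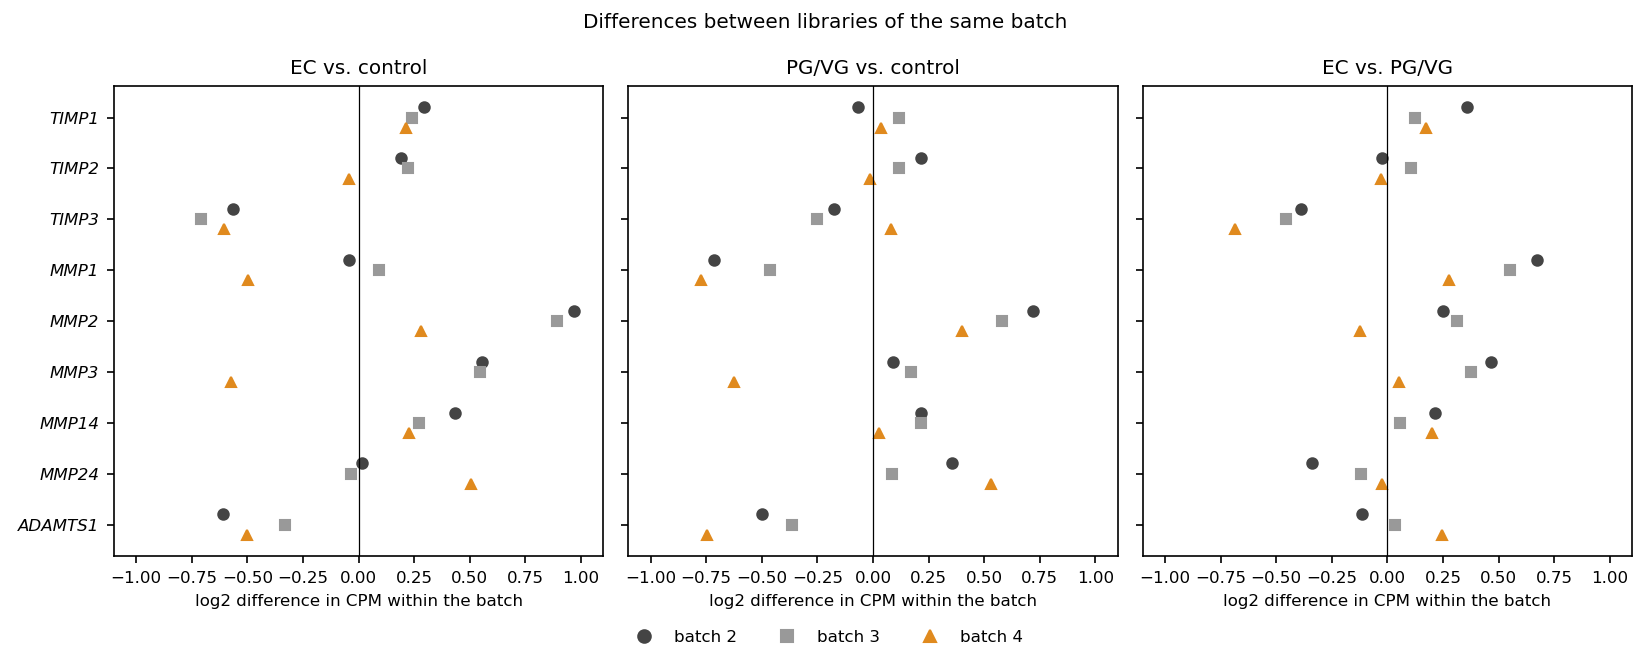
log2 difference in CPM between libraries of the same batch for the 9 genes tested, with 1 panel per comparison and marker shape for the batch. The 3 batches lay on the same side of 0 for TIMP1, TIMP3, MMP2, MMP14 and ADAMTS1 in EC vs. control, whereas MMP3 had 0.55 and 0.55 in batches 2 and 3 and −0.57 in batch 4.

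Most of these genes also differed between batches. Of the 9 genes tested, 7 had a batch difference, all but TIMP1 and TIMP2 (edgeR adjusted p = 0.155 for TIMP2), beside 34.3% of all genes tested. Mean CPM in batch 4 relative to the mean of batches 2 and 3 was 4.54 for MMP1 and 4.47 for MMP3, both in the chromosome 11 cluster, and 2.20 for ADAMTS1 and 1.35 for MMP14. It was 0.701 for MMP2, 0.674 for TIMP3 and 0.367 for MMP24. The inhibitors TIMP1 and TIMP2 were at 1.04 and 1.1. When batches 2 and 3 alone were fitted, a setting chosen after batch 4 was seen to stand apart, none of the 9 genes differed between them with edgeR at an adjusted p under 0.05, and none at an unadjusted p under 0.05. The share of all genes with a batch difference in that smaller fit is not given, so nothing is read from this count. In that fit, TIMP1 in EC vs. control was no longer a DEG (adjusted p = 0.0849), and the other 9 calls between conditions held.

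Related genes were taken as whole families or lists by name, with earlier results known. Of 17 other MMP genes, 8 were tested. In EC vs. control, 4 of them (50%) were upregulated and none downregulated, beside 8.07% and 5.38% of all genes tested. The median LFC of the 8 was 0.75, beside 0.01 over all genes tested. MMP9 (4, 4 and 12 counts in the control) and MMP25 (6, 10 and 12) passed the filter only through treated libraries, where their counts were higher. That selection favors a positive LFC in both, so nothing is read from the medians of this list. MMP17, a membrane-type enzyme anchored by glycosylphosphatidylinositol, was at 3.24, 3.22 and 3.43 CPM in the control, 5.73, 6.13 and 5.62 CPM in PG/VG and 6.86, 7.28 and 7.19 CPM in EC. The 3 groups of MMP17 values did not overlap, and it was upregulated in EC (LFC 1.1, SE 0.154, edgeR adjusted p = 5.17e-05) and in PG/VG (LFC 0.82, SE 0.157, adjusted p = 0.00372), with an LFC of 0.29 between EC and PG/VG (adjusted p = 0.38). The other 3 included MMP11, also called stromelysin-3, with an LFC of 1.11 at 13 to 73 counts per library (edgeR adjusted p = 0.0179). They also included the membrane-type enzymes MMP16 (LFC 0.42, adjusted p = 0.0219) and MMP15 (LFC 0.41, adjusted p = 0.0028). Within batches 2, 3 and 4 the log2 differences were 1.81, 1.12 and 0.21 for MMP11 and 0.35, 0.86 and 0.07 for MMP16. The EC and control values of both overlapped. In EC vs. control, the list had 3 DEGs with DESeq2, 2 at an adjusted p under 0.01 and 1 without the replicate block. The gelatinase MMP9 had 4 to 22 counts per library. In PG/VG vs. control, MMP17 was the 1 DEG of the 8 (12.5%, beside 4.54% of all genes tested), and their median LFC was 0.71, again with MMP9 and MMP25.

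Of 18 other ADAMTS genes, 11 were tested. In EC vs. control, 3 of them (27.3%) were DEGs, beside 13.5% of all genes tested. In PG/VG vs. control, 2 (18.2%) were DEGs, beside 4.54%. In EC vs. control, ADAMTS15, which cuts proteoglycans, was upregulated (LFC 0.84, SE 0.0957, edgeR adjusted p = 5.95e-06), as was ADAMTS7 (LFC 0.35, adjusted p = 0.0146), and ADAMTS6 was downregulated (LFC −0.83, SE 0.142, adjusted p = 0.000411). In PG/VG vs. control, ADAMTS15 was upregulated (LFC 0.53, adjusted p = 0.00244) and ADAMTS6 downregulated (LFC −0.62, adjusted p = 0.0122). The list had 1 DEG in PG/VG vs. control with batches 2 and 3 alone, and 4 with library size as the only scaling or on ComBat-Seq adjusted counts. Members of the ADAMTS family thus moved in both directions. Among 8 tested ADAM genes with a protease domain, ADAM17, which sheds TNF and EGF receptor ligands, was the 1 DEG in EC vs. control (LFC 0.28, edgeR adjusted p = 0.0176), or 12.5% of the list beside 13.5% of all genes tested, and 11.7% of its exon length is shared with other genes. The list had 0 DEGs in EC vs. control with batches 2 and 3 alone and 2 with RLE normalization, with DESeq2 or on ComBat-Seq adjusted counts. It had 0 DEGs in PG/VG vs. control with edgeR (1 gene at an unadjusted p under 0.05) and with DESeq2, and 1 on ComBat-Seq adjusted counts.

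None of the 5 other metalloproteinase inhibitors tested was a DEG in edgeR in any comparison, with 1, 0 and 0 of them at an unadjusted p under 0.05 in the 3 comparisons. Among all genes tested, 13.5%, 4.54% and 0.855% were DEGs. RECK, a membrane-anchored inhibitor, had an LFC of −0.014 in EC vs. control, and TIMP4 an LFC of 0.50 (adjusted p = 0.087). Plasmin, the product of the plasminogen system, can activate several pro-MMPs. In EC vs. control, 5.38% of all genes tested were downregulated and 8.07% upregulated. Of the 9 plasminogen genes tested, 3 (33.3%) were downregulated and none upregulated. Among them were SERPINE2, a serpin that blocks thrombin and other serine proteases (LFC −0.31, SE 0.0677, edgeR adjusted p = 0.00419), and ANXA2, a cell surface receptor for plasminogen and its activator (LFC −0.54, SE 0.0717, adjusted p = 3.13e-05). SERPINE2 (LFC −0.33, adjusted p = 0.00618) and ANXA2 (LFC −0.35, adjusted p = 0.00657) were downregulated in PG/VG vs. control. Of 11 genes for proenzyme convertases and MMP regulators, CD151 was downregulated in EC vs. control (LFC −0.27, edgeR adjusted p = 0.0211). FURIN, the convertase that processes pro-MMP14, was upregulated in PG/VG vs. control (LFC 0.24, adjusted p = 0.0479). PCSK5 was called higher in EC vs. control (LFC 1.42, edgeR adjusted p = 0.0271) at 4 to 31 counts per library. Its control counts were 4, 8 and 6, so PCSK5 passed the filter only through treated libraries. That selection favors a positive LFC, so nothing is read from the PCSK5 call. With at least 10 counts required in every library, PCSK5 is not tested. In EC vs. control, 2 of the 11 genes (18.2%) were called, CD151 and PCSK5, beside 13.5% of all genes tested. In PG/VG vs. control, FURIN was the 1 gene called (9.09%), beside 4.54%. The calls of this list depended on the settings. In EC vs. control, the list had 1 DEG with DESeq2 or with at least 10 counts in every library, and 0 with batches 2 and 3 alone (3 at an unadjusted p under 0.05). For PG/VG vs. control, it had 0 DEGs in edgeR with RLE normalization, with at least 10 counts in every library or with batches 2 and 3 alone, with 3 to 4 genes at an unadjusted p under 0.05, and 2 with library size as the only scaling or on ComBat-Seq adjusted counts.

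Over the 52 tested genes of the 6 lists, 13 were DEGs in EC vs. control, 8 upregulated, PCSK5 among them, and 5 downregulated. For PG/VG vs. control, 6 were DEGs, 3 in each direction. These are 25.0% and 11.5% of the genes tested in the lists, beside 13.5% and 4.54% of all genes. Without PG/VG replicate 2, the lists had 2 DEGs in PG/VG vs. control. None of the 52 was a DEG in EC vs. PG/VG with edgeR or with DESeq2, beside 0.855% of all genes tested in edgeR. There were 9 at an unadjusted p under 0.05 in edgeR, 6 DEGs on ComBat-Seq adjusted counts and 1 without EC replicate 3 or EC replicate 4.

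**Figure D4:**
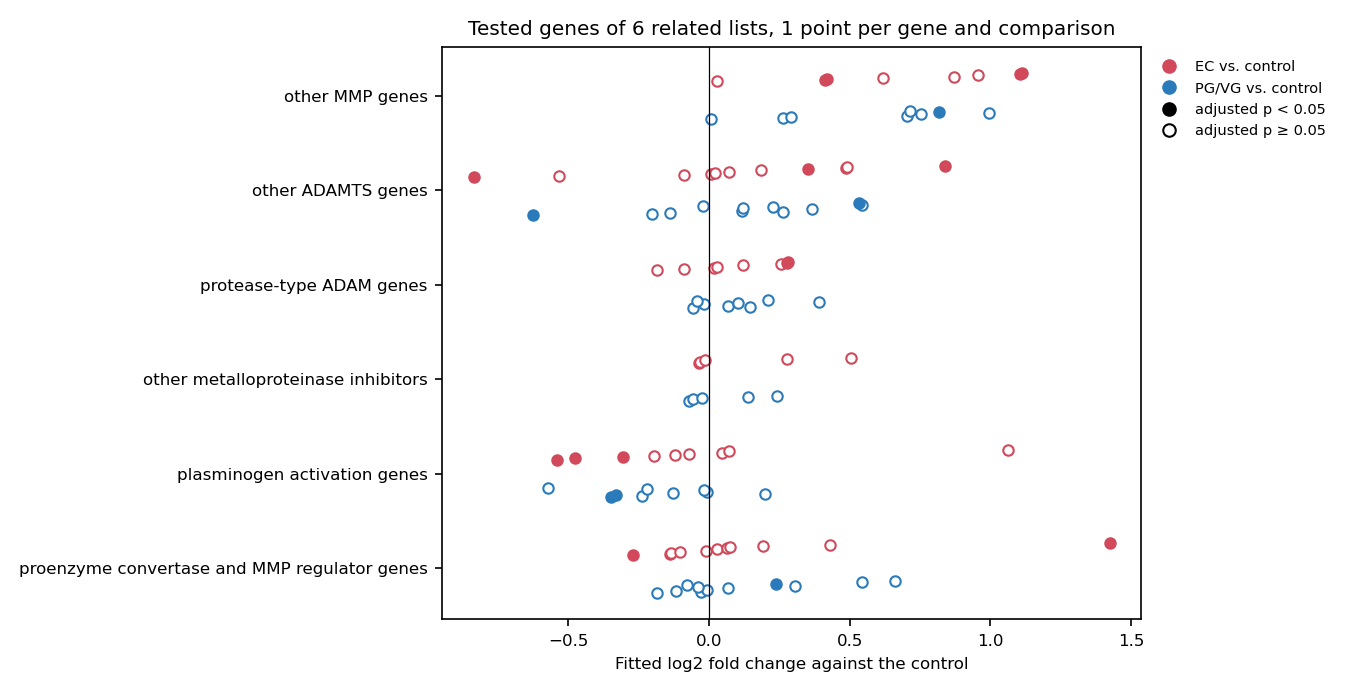
Fitted LFC against the control for each tested gene of the 6 related lists, 1 row per list and 1 point per gene and comparison, filled for an adjusted p under 0.05. The 4 filled points of the other MMP genes in EC vs. control lie between 0.41 and 1.11, and the filled points of the plasminogen activation genes lie between −0.54 and −0.31 in EC and between −0.35 and −0.33 in PG/VG.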

How the data were processed

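RNA of 9 BEAS-2B libraries was selected by poly-T beads and sequenced as read pairs. Per the authors and the labels, reads were trimmed with fastp, aligned with STAR to GRCh38.p12 and counted on exons with featureCounts of Subread 2.0.4, and reads that mapped or overlapped more than once were ignored. The strand setting is not given in the sources used here. The deposited values are the authors' raw counts per gene before batch adjustment, in 9 columns, all used.

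Genes were tested in R 4.3.3 (edgeR 4.0.16, TMM, robust quasi-likelihood fit with batch, Benjamini-Hochberg adjustment over 16030 genes). The SE follows from the LFC and the F statistic. Coordinates and exon lengths are those of GENCODE 44. The number was taken to pair the libraries because the labels give it as the batch. Deviations from the condition mean correlated at 0.432 to 0.795 in 9 pairs with the same number and −0.668 to 0.565 in 18 with different numbers. The ranges overlap, and deviations from a mean of 3 libraries cancel out, which lowers the correlations between different numbers. The pairing itself was not tested. No replicates were duplicates (chi-square per gene at least 3.66). The p-values rest on the spread left after the condition and batch terms, with 3 libraries per condition from 1 cell line.

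The 10 genes and the lists were chosen with earlier results of these data known. Every one of the 10 is named, and of each list up to 4 DEGs per direction with at least 20 counts in the higher group. MMP9, MMP25, PCSK5, RECK and TIMP4 were added after their values were seen. A result for a gene that falls within this naming rule is not reported here. Alternatives were no replicate block, other scalings and filters, DESeq2 1.42.0 with the batch, ComBat-Seq (sva 3.50.0) before DESeq2, the compared groups alone, a threshold of 0.01 and fits without 1 library. Scripts were tested on simulated data.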

Additional observations from a re-analysis of the deposited data

How the results depend on the processing

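Without the replicate block, edgeR called 0 of the 9 tested genes in each comparison, in place of 5, 3 and 2, with 3, 1 and 1 at an unadjusted p under 0.05, and 1, 0 and 0 genes of the 6 related lists in place of 13, 6 and 0. Leaving out 1 library gave 3 to 5 DEGs among the 9 genes in EC vs. control (3 without control replicate 2), 1 to 2 in EC vs. PG/VG, and 2 to 7 and 0 to 1 of the related lists in PG/VG vs. control and in the direct comparison. At an adjusted p under 0.01, 7 related genes remained DEGs in EC vs. control. On ComBat-Seq adjusted counts there were 13 related DEGs in PG/VG vs. control and 6 in EC vs. PG/VG, and with library size as the only scaling 1 in the latter. With batches 2 and 3 alone, chosen after seeing the data, 0 of the 9 genes had a batch difference in place of 7. The shares of all genes tested that were called in these other settings are not given, so these counts are not read as a trait of the listed genes. The cause of these differences was not tested.

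Directions turned for differences that were not called. MMP3 in EC vs. control was at 0.037 with library size scaling, 0.055 with DESeq2, 0.07 on ComBat-Seq counts, 0.535 in batches 2 and 3 alone and −0.191 to 0.474 with a library left out, and in PG/VG vs. control at 0.112 and −0.453 to 0.224 in the last 2 settings. In batches 2 and 3 alone, MMP1 in EC vs. control was at 0.006, MMP24 in EC vs. control at −0.026 and ADAMTS1 in EC vs. PG/VG at −0.037. With a library left out, TIMP1 in PG/VG vs. control ranged from −0.016 to 0.088, TIMP2 in EC vs. PG/VG from −0.028 to 0.065 and ADAMTS1 in EC vs. PG/VG from −0.041 to 0.137. The 10 called LFCs of the 9 genes kept their sign in every setting run, and for the related lists counts alone were compared. Of the differences of the 9 genes that were not called, TIMP1 in EC vs. PG/VG became a call, on ComBat-Seq adjusted counts. At 0 to 4 counts, depth sets the limit for MMP10.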
